A study of Rattus norvegicus with 6 samples.

Results

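Heat shock chaperones were followed in cells grown out of rat amniotic fluid, as the 10 genes Hspa1a, Hspa1b, Hspa8, Hsp90aa1, Hsp90ab1, Hspd1, Hspe1, Hspb1, Hsph1 and Dnajb1. Members were the rows of the deposited gene table that carry 1 of these symbols. Of the 10 symbols, 9 had a row among the 22085 genes of the table, and Hspa1a was not analysed here under its own name. All 9 rows passed the filter on low counts. The fluid had been collected on embryonic day 18.5 from a rat model of preeclampsia and from control pregnant rats, and the cells were harvested at passage 4. There were 3 preeclampsia and 3 control libraries, and cells of both groups had been grown in the same serum-containing medium at 37 °C. No source used here states how the preeclampsia model was made, the rat strain, or how many animals or fetuses stand behind a library. Every p-value therefore measures the spread between these libraries, which may in part be technical.

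Heat shock proteins bind unfolded or partly folded proteins and help them reach or regain their shape. In the cytosol, J-domain proteins such as Dnajb1 hand a client to an HSP70, exchange factors such as Hsph1 reset the HSP70, and HSP90 takes over clients such as kinases and steroid receptors. In the mitochondrial matrix, Hspd1 and its lid Hspe1 form a folding chamber, and Hspb1 is a small heat shock protein that holds clients and is known to act on actin filaments. Transcription of many of these genes is raised by heat shock factor 1, which binds inverted repeats of the unit GAA in their promoters. In mesenchymal cells in culture the constitutive members are abundant without any heat stress.

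Promoter stretches that hold such repeats are shown because heat shock factor 1 is known to act through them. RefSeq promoters of build GRCr8, each running from 250 bases before the annotated start to 50 after it, were matched by symbol for 8 of the 10 genes. Hsp90aa1 and Hspa1b had no promoter under their symbols and are named only. The row named Hspa1b lists the transcript that RefSeq assigns to Hspa1a, as described further on. The Hspa1a window therefore goes with that row. The windows were searched for the 2-unit motifs GAANNTTC and TTCNNGAA and the 3-unit motifs GAANNTTCNNGAA and TTCNNGAANNTTC. Each 2-unit motif is its own reverse complement and the 3-unit motifs are each other's, so the search covers both strands, and each 3-unit match contains 2-unit matches. The windows of Hspb1, Hsph1 and Dnajb1 each held a further 2-unit match that is not shown. In the 30-base stretches below, written 5′ to 3′ on the strand of the gene, capitals mark the matched repeat.
Hspa8, upstream, plus strand, chr8:50080292-50080321: ggcgagcgtGAAAGTTCCAGAAcgctgcgg
Hspa8, near the start, plus strand, chr8:50080450-50080479: gcggaacccTTCTGGAAGGTTCtaagacag
Hspe1, plus strand, chr9:64084256-64084285: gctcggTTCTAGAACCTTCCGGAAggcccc
Hspd1, minus strand, chr9:64084256-64084285: ggggccTTCCGGAAGGTTCTAGAAccgagc
Hsph1, plus strand, chr12:10427323-10427352: tgccgcagaTTCTGGAAAGTTCtcctcagt
Hspb1, minus strand, chr12:26432412-26432441: cttcaactagaGAAGTTTCcagatgggggc
Dnajb1, minus strand, chr19:41431134-41431163: cgggaggggcgGAAGGTTCtggagggctgg

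A 3-unit match stood in the windows of 4 of the 8 genes, Hspa8, Hspd1, Hspe1 and Hsph1, against 0.798% of the 33469 promoters in the table. A 2-unit match stood in 6 of the 8, with Hspb1 and Dnajb1 added, against 15.9% of all promoters. The Hspd1 and Hspe1 lines are the same genomic stretch read on opposite strands, an 18-base run of alternating GAA and TTC units between the starts of these head-to-head genes, and so a single element. It lay 65 to 48 bases before the annotated Hspe1 start. The windows of Hspa1a and Hsp90ab1 held no match. Only exact units within the window were searched, so repeats with a mismatch or lying further from the start would be missed. Among the other chaperone lists described further on, a 3-unit match stood in Dnaja1, Chordc1, Cct4 and Serpinh1. A match describes the letters only and was not measured as binding.

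The counted libraries were deep, with totals from 48402185 to 59193961 counts, and the members held between 0.434% and 0.552% of all counts in a library. The libraries differed among themselves beyond the groups. A list of 20 cell division genes, active in G2 and M, had a mean level of 6.64 log2 CPM (TMM-scaled counts relative to library size) in preeclampsia library 1, against 4.35 to 5.54 in the remaining 5. The 14 macrophage and blood cell markers averaged 1.26, 5.29 and 4.19 log2 CPM in preeclampsia libraries 1 to 3 and 3.34, 3.35 and 0.29 in control libraries 1 to 3. Summed over that list, FPKM ran from 30.9 to 448.6 in the preeclampsia libraries and from 26.95 to 152.6 in the control libraries, and no marker on it was at 0 in every library. Of the 3 tested epithelial markers, 1 was higher and 2 were lower in preeclampsia cells. Krt7, the most abundant, was measured at 80.7, 24.6 and 12.4 FPKM in preeclampsia libraries and at 13.6, 33.6 and 20.7 FPKM in control libraries, and Krt18 at 0.05, 0.20 and 0 FPKM in preeclampsia libraries and at 0.48, 17.2 and 4.38 FPKM in control libraries. Summed over the epithelial list, FPKM ran from 14.0 to 81.2 in preeclampsia libraries and from 17.5 to 88.7 in control libraries. Of the 6 tested mesothelial markers, 2 were higher and 4 lower, with a median log2 fold change of -0.23. Of these, Msln was measured at 17.0, 11.8 and 20.9 FPKM in preeclampsia libraries and at 1.06, 2.03 and 1.76 FPKM in control libraries, and Wt1 averaged 2.67 ± 2.26 FPKM in preeclampsia cells and 3.16 ± 2.89 FPKM in control cells. Among all marker genes DESeq2 called Krt8, Krt18, Msln and the mesenchymal Pdgfra, and their part in the chaperone values was not tested. The 12 mesenchymal markers, listed because the cells are labelled mesenchymal stem cells, averaged between 9.50 and 10.27 log2 CPM in all 6. Of them, 9 were higher and 3 lower in preeclampsia cells, with a median log2 fold change of 0.29. The groups did not overlap in 3 of them, all higher, against 7.25% of all tested genes. By sign, all 14 macrophage and blood cell markers and all 20 G2 and M phase genes were higher, against 51.7% of all tested genes. Their medians were 1.15 and 0.44, and none had an unadjusted p under 0.05 in edgeR. Fewer cells of a type and less RNA per cell cannot be told apart in such bulk libraries.

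The comparison asked how far chaperone expression in preeclampsia cells stood from that in control cells. Of the 9 rows, 4 had a higher and 5 a lower fitted level in preeclampsia cells, against 51.7% of all 15776 tested genes with a value above 0. The median log2 fold change was -0.03 for the 9 and 0.01 for all. None was called by edgeR's quasi-likelihood test at an adjusted p under 0.05, the adjusted p running from 0.470 for Hspb1 to 0.968 for Hsp90ab1. The background in that test was 0% of genes called, with a smallest adjusted p of 0.228. At an unadjusted p under 0.05 there was 1 of the 9, Hspb1, against 9.19% of all tested genes. The groups did not overlap in 1 of the 9, again Hspb1, against 15.6% of all tested genes (7.25% with preeclampsia cells higher and 8.3% with them lower). DESeq2 called 0 of the 9 at an adjusted p under 0.05, against 2.36% of the genes to which it gave an adjusted p. By each of these counts the 9 rows stood near the background.

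**Figure D1:**
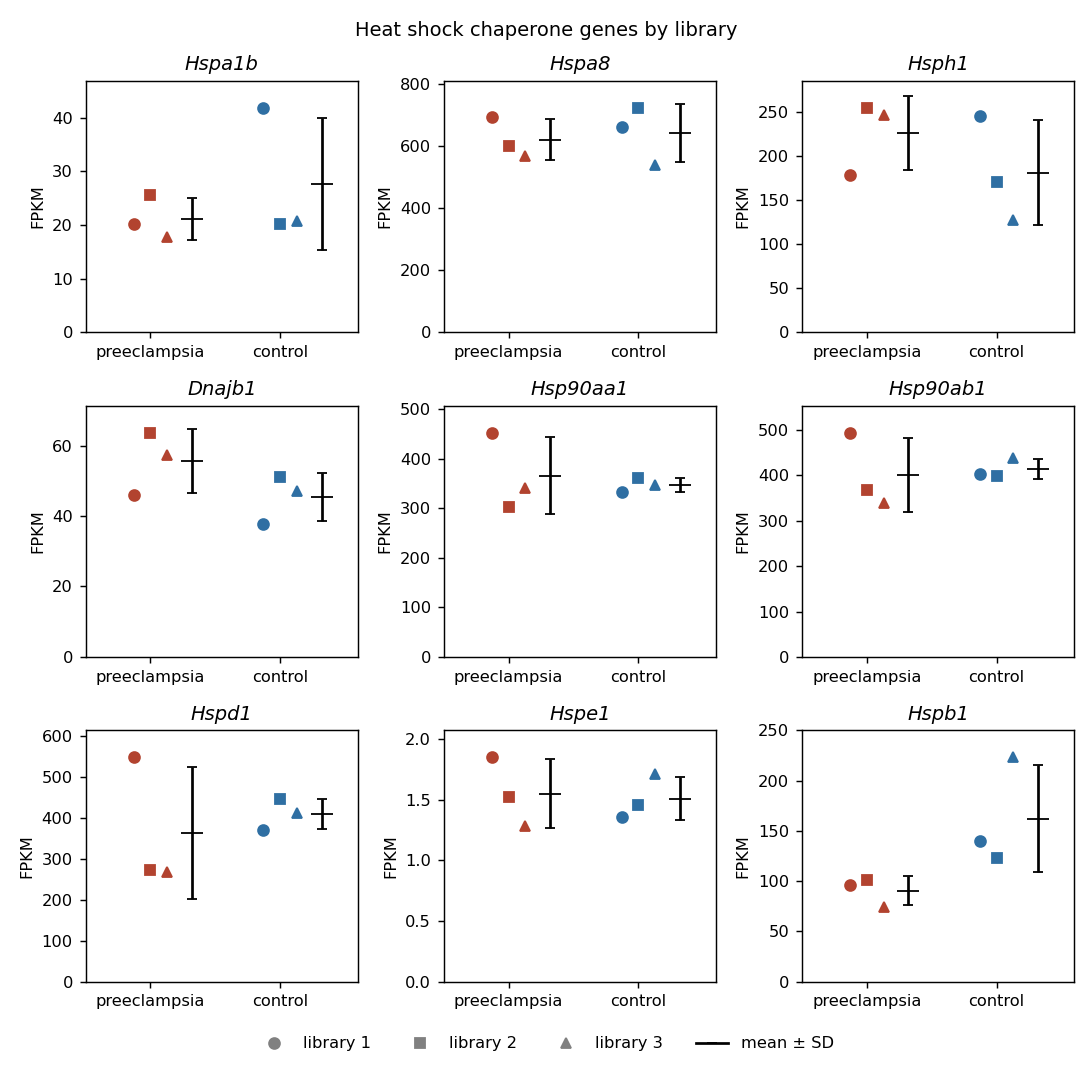
FPKM (vertical axis, starting at 0) of each of the 9 heat shock rows in the 3 preeclampsia libraries (left, red) and the 3 control libraries (right, blue), with symbols for libraries 1 to 3 and the mean ± SD beside each group. The groups overlap in every panel except Hspb1, where the preeclampsia libraries lie between 74.7 and 101 FPKM and the control libraries between 123 and 223 FPKM.

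Hspb1 encodes the small heat shock protein HSP27 (HSP25 in rodents), which forms large oligomers that hold unfolded proteins. It was measured at 96.2, 101 and 74.7 FPKM in preeclampsia libraries 1 to 3 and at 140, 123 and 223 FPKM in control libraries 1 to 3. All 3 preeclampsia libraries lay below all 3 control libraries, and control library 3 stood far above the rest. The means were 90.6 ± 14.0 FPKM in preeclampsia cells and 162 ± 53.6 FPKM in control cells (SD, n = 3 each). The log2 fold change was -0.81 (SE 0.25, 95% interval -1.41 to -0.22), a ratio of 0.569, with an unadjusted p of 0.0148 and an adjusted p of 0.470 in edgeR and an adjusted p of 0.105 in DESeq2. In edgeR Hspb1 thus passed 0.05 before, and not after, adjustment for the number of genes tested. Without control library 3 the log2 fold change was -0.54, and without preeclampsia library 3 it was -0.69 with an unadjusted p of 0.0522 in edgeR. The macrophage list was lowest, and Hspb1 highest, in control library 3, and the part of that list in the result was not tested. Its row spans 20794014 to 20795675 on chromosome 12, minus strand, in the coordinates of the deposited table, for which no source used here names a build.

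The other 7 tested small heat shock genes are Cryab, Hspb2, Hspb6, Hspb7, Hspb8, Hspb9 and Hspb11, and Hspb3 did not pass the filter. By sign, 6 of the 7 were lower and 1 higher in preeclampsia cells, against 48.3% of all tested genes with a value below 0. The median log2 fold change of the 7 was -0.59, and edgeR and DESeq2 called 0 of them. On TMM-scaled CPM the groups overlapped in all 7, and before adjustment edgeR put 0 of the lower 6 below 0.05. Of the lower 6, Hspb9 was barely detected, at 0.01 to 0.05 FPKM (log2 fold change -0.03), and Hspb11 was at -0.18. The others lay between -1.01 for Hspb7 and -0.59 for Hspb2. Cryab, which encodes the lens and muscle chaperone alpha-B crystallin, was measured at 22.8, 40.2 and 54.0 FPKM in preeclampsia libraries 1 to 3 and at 90.8, 96.8 and 47.2 FPKM in control libraries 1 to 3. The groups overlapped through control library 3, the library in which Hspb1 was highest, and the log2 fold change was -0.98 (SE 0.41, adjusted p = 0.551 in edgeR). Hspb8, a partner of Bag3 in the removal of damaged proteins, ran the other way, at 126, 141 and 155 FPKM in preeclampsia libraries and 118, 85.9 and 100.2 FPKM in control libraries. In Hspb8 each preeclampsia value was above each control value in FPKM, with a log2 fold change of 0.49 (SE 0.18, unadjusted p = 0.0316, adjusted p = 0.483 in edgeR). After TMM scaling the groups no longer separated for that gene.

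The cytosolic HSP70 genes were led by Hspa8, the constitutive HSC70 that folds new proteins and strips clathrin from vesicles. Hspa8 was measured at 695, 599 and 566 FPKM in preeclampsia libraries 1 to 3 and at 662, 723 and 540 FPKM in control libraries 1 to 3. The groups overlapped fully, with control libraries both highest and lowest. The means were 620 ± 66.7 FPKM in preeclampsia cells and 642 ± 93.0 FPKM in control cells (SD, n = 3 each), and the log2 fold change was -0.03 (SE 0.17, 95% interval -0.44 to 0.37, adjusted p = 0.967 in edgeR). Hspa8 alone held between 33.5% and 41.2% of the counts of the 9 rows in a library. Its row spans 41183397 to 41187260 on chromosome 8, plus strand. Hspa8 has many processed pseudogenes, so its count may include reads of copies.

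The row named Hspa1b stands for the stress-inducible HSP70, which is low in unstressed cells and is the classic product of the heat shock response. It was measured at 20.1, 25.6 and 17.9 FPKM in preeclampsia libraries 1 to 3 and at 41.9, 20.2 and 20.8 FPKM in control libraries 1 to 3. Control library 1 stood apart at the top, and the other 5 libraries overlapped between the groups. The means were 21.2 ± 3.96 FPKM in preeclampsia cells and 27.6 ± 12.3 FPKM in control cells (SD, n = 3 each), with a log2 fold change of -0.38 (SE 0.35, 95% interval -1.22 to 0.47, adjusted p = 0.815 in edgeR). Without control library 1 the log2 fold change was 0.10, so that its sign rested on that library.

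The identity of that row needs care. The transcript listed in it is the one that RefSeq on GRCr8 assigns to Hspa1a, while the transcript that RefSeq assigns to Hspa1b is listed in the table under the locus identifier LOC108348108. The row named Hspa1b spans 3855104 to 3859148 on chromosome 20, plus strand, and the LOC108348108 row begins 11616 bases beyond it on the same strand. LOC108348108 was measured at 13.4, 17.5 and 12.7 FPKM in preeclampsia libraries and at 30.4, 14.7 and 15.02 FPKM in control libraries, with a log2 fold change of -0.46 (SE 0.35, adjusted p = 0.768 in edgeR). Its counts and FPKM imply a length of 3453 bases, above the 2457 bases of its row. Its FPKM level is therefore uncertain, and the rows are compared by counts. Control library 1 was highest in both rows. The count of the first row over that of the second was 1.169, 1.141 and 1.092 in preeclampsia libraries and 1.071, 1.065 and 1.081 in control libraries. The inducible HSP70 copies are nearly identical in sequence, so how reads were split between these rows is uncertain. The first row also overlaps Hspa1l, a germ-cell HSP70 gene on the opposite strand, by 468 bases, and no source used here states whether counting used strand.

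The inducible row was set against Hspa8 as a ratio within each library, which does not depend on library scaling. The FPKM ratio was 0.0290, 0.0426 and 0.0315 in preeclampsia libraries and 0.0632, 0.0279 and 0.0386 in control libraries. The groups overlapped, with a mean log2 difference of -0.27 and p = 0.7 in a two-sided exact permutation test, in which 3 against 3 libraries cannot go below 0.1. Without control library 1 the difference was 0.05.

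Dnajb1, the J-domain protein of the heat shock response that stimulates HSP70, was measured at 46.0, 63.7 and 57.2 FPKM in preeclampsia libraries 1 to 3 and at 37.8, 51.2 and 47.2 FPKM in control libraries 1 to 3. Preeclampsia libraries 2 and 3 were above every control library, while preeclampsia library 1 lay among the controls. The means were 55.6 ± 8.96 FPKM in preeclampsia cells and 45.4 ± 6.90 FPKM in control cells (SD, n = 3 each). The log2 fold change was 0.32 (SE 0.18, 95% interval -0.11 to 0.76, adjusted p = 0.666 in edgeR), and leaving out 1 library moved it between 0.19, without preeclampsia library 2, and 0.46, without preeclampsia library 1. Its row spans 24522717 to 24526458 on chromosome 19, minus strand.

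Hsph1 encodes HSP110, the exchange factor that works with HSP70 and J-domain proteins on aggregates. It was measured at 178, 254 and 247 FPKM in preeclampsia libraries 1 to 3 and at 245, 171 and 128 FPKM in control libraries 1 to 3. Preeclampsia libraries 2 and 3 stood at the level of control library 1, and preeclampsia library 1 at that of control library 2. The means were 226 ± 42.1 FPKM in preeclampsia cells and 181 ± 59.3 FPKM in control cells (SD, n = 3 each), with a log2 fold change of 0.34 (SE 0.30, 95% interval -0.39 to 1.06, adjusted p = 0.809 in edgeR). The value moved with the libraries in the fit, to 0.66 without control library 1 and to 0.13 without control library 3. Its row spans 5390916 to 5410224 on chromosome 12, plus strand. In preeclampsia libraries 2 and 3 the macrophage list was also higher than in the other 4, and its part in the Dnajb1 and Hsph1 values was not tested.

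The HSP90 genes, which differ in that Hsp90aa1 is inducible by heat and Hsp90ab1 is constitutive, were both abundant. Hsp90aa1 was measured at 453, 303 and 341 FPKM in preeclampsia libraries 1 to 3 and at 333, 361 and 346 FPKM in control libraries 1 to 3. The control libraries lay close together and preeclampsia library 1 stood above them, while preeclampsia library 2 stood below. Its row spans 129702376 to 129707907 on chromosome 6, minus strand. The log2 fold change was 0.09 (SE 0.16, 95% interval -0.29 to 0.47, adjusted p = 0.905 in edgeR). Hsp90ab1 was measured at 494, 368 and 340 FPKM in preeclampsia libraries and at 404, 399 and 439 FPKM in control libraries, the preeclampsia libraries lying on both sides of the controls. Its log2 fold change was -0.03 (SE 0.16, 95% interval -0.42 to 0.35, adjusted p = 0.968 in edgeR), and its row spans 15432986 to 15438358 on chromosome 9, plus strand.

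The coefficient of variation of FPKM for the HSP90 genes was 21.3% and 20.5% in preeclampsia cells and 4.12% and 5.25% in control cells, for Hsp90aa1 and Hsp90ab1 in that order. On CPM, Hsp90aa1 averaged 876 ± 155 in preeclampsia cells and 823 ± 24.3 in control cells (SD, n = 3 each). Hsp90ab1 averaged 1153 ± 198 CPM in preeclampsia cells and 1179 ± 49.5 CPM in control cells. The medians that follow are coefficients of variation on CPM and are not directly comparable with those on FPKM. Over all tested genes the median was 20.2% in preeclampsia cells and 19.1% in control cells. Over tested genes whose mean was 10 FPKM or more it was 13.8% and 12.4%, and over the 9 rows 17.7% and 12.3%, in the same order. The ratio of Hsp90aa1 to Hsp90ab1 was 0.916, 0.823 and 1.00 in preeclampsia libraries and 0.823, 0.905 and 0.789 in control libraries. The groups overlapped, with a log2 difference of 0.12 and p = 0.3 in the two-sided exact permutation test. The difference was 0.05 without preeclampsia library 3 and 0.19 without preeclampsia library 2.

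In the mitochondrial chaperonin pair, Hspd1 encodes the HSP60 barrel and Hspe1 the HSP10 lid. Hspd1 was measured at 547, 271 and 268 FPKM in preeclampsia libraries 1 to 3 and at 371, 445 and 410 FPKM in control libraries 1 to 3. Preeclampsia library 1 was the highest of all 6 and preeclampsia libraries 2 and 3 were the lowest, with the controls between. The means were 362 ± 160 FPKM in preeclampsia cells and 409 ± 37.3 FPKM in control cells (SD, n = 3 each), and the log2 fold change was -0.17 (SE 0.28, 95% interval -0.84 to 0.50, adjusted p = 0.900 in edgeR). Without preeclampsia library 1 it was -0.55 (SE 0.13), with an unadjusted p of 0.00595 and an adjusted p of 0.274. Library 1 was the preeclampsia library with the highest G2 and M phase level and the lowest macrophage level, and the part of either in this split was not tested.

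Hspe1 had counts of 1442, 1360 and 934 in preeclampsia libraries 1 to 3 and of 1014, 1137 and 1321 in control libraries 1 to 3. Scaled to library size these were 26.9, 23.8 and 19.6 CPM in preeclampsia libraries and 21.2, 21.5 and 24.7 CPM in control libraries. The preeclampsia libraries again lay on both sides of the controls, with library 1 highest and library 3 lowest. The log2 fold change was 0.06 (SE 0.16, 95% interval -0.34 to 0.45, adjusted p = 0.941 in edgeR). Counts are given because its deposited FPKM, between 1.28 and 1.85, implies a length of 15035 bases, while its row spans 3089 bases. Such an implied length above the gene's span was found in 5.83% of 10038 well-measured genes. The Hspe1 level per length was therefore not set beside those of other members.

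The rows of Hspd1, at 56579195 to 56590011 on the minus strand of chromosome 9, and Hspe1, at 56589912 to 56593000 on the plus strand, overlap by 100 bases at their starts. The count of Hspd1 over that of Hspe1 was 13.7, 8.22 and 9.66 in preeclampsia libraries and 12.6, 14.1 and 11.1 in control libraries. The control libraries lay within the range of the preeclampsia libraries except for control library 2, which was the highest of all 6. On FPKM the log2 difference was -0.28, with p = 0.3 in the two-sided exact permutation test. The difference was -0.49 without preeclampsia library 1 and -0.12 without preeclampsia library 2. After scaling, the highest library exceeded the lowest by 1.95 fold in Hspd1 and by 1.37 fold in Hspe1. On the GRCr8 annotation these genes start on either side of the shared promoter element, whereas the deposited rows overlap at their starts.

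**Figure D2:**
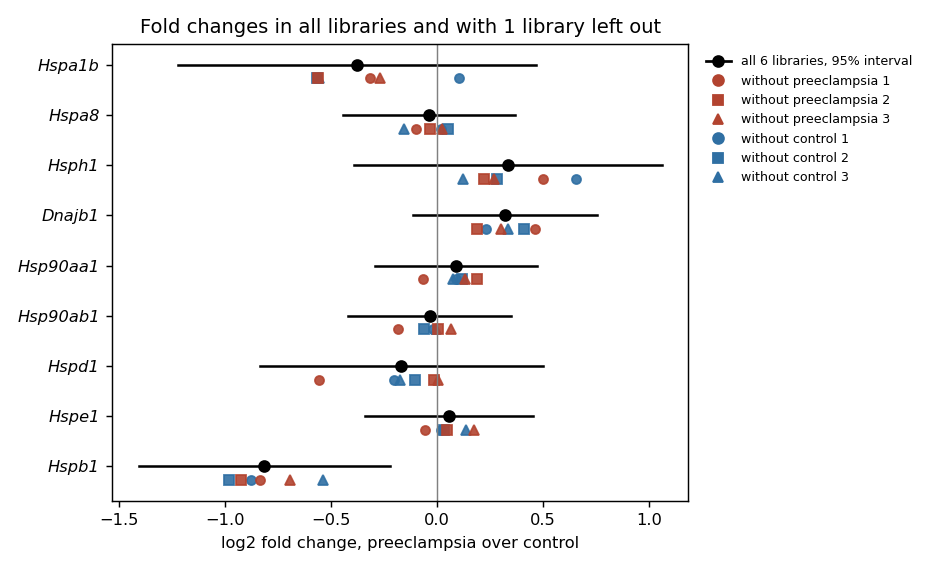
Log2 fold change of each heat shock row, preeclampsia over control, in edgeR (black, with its 95% interval) and the same value with each of the 6 libraries left out in turn (coloured symbols below it). Only the Hspb1 interval, -1.41 to -0.22, leaves out 0, and the Hspd1 value without preeclampsia library 1, -0.55, stands apart from its others.

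Ordered by deposited FPKM over all 6 libraries, Hspa8 came first at 631 ± 73.3 (SD, n = 6), followed by Hsp90ab1 at 407.5 ± 54.2, Hspd1 at 385 ± 107 and Hsp90aa1 at 356 ± 51.2. Hsph1 at 204 ± 52.3, Hspb1 at 126 ± 52.6, Dnajb1 at 50.5 ± 9.08 and Hspa1b at 24.4 ± 8.92 came after them. Hspa8 was above Hsp90ab1, Hsp90aa1 above Hsph1, and Hspb1 above Dnajb1 in all 6 libraries with ranges that did not overlap. The ranges of Hsp90ab1, Hspd1 and Hsp90aa1 overlapped, and neighbours there held their order in 4 of 6 libraries. Those of Hsph1 and Hspb1, and of Dnajb1 and Hspa1b, overlapped too, their order holding in 5 of 6. The lengths implied by counts and FPKM were 695 bases for Hspd1 and 1641 bases for Hsph1 and between 1476 and 2896 for the other 6, so the place of Hspd1 in this order is the least certain. By mean FPKM the 8 genes stood between the 85.8 and 99.6 percentile of the table.

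The same libraries recurred as extremes. Hsp90aa1, Hsp90ab1, Hspd1 and Hspe1, 4 of the 9 rows, had their highest CPM in preeclampsia library 1, against 18.5% of all tested genes. Of the 13 tested TRiC and prefoldin genes, which fold actin and tubulin in the cytosol, 9 were highest there as well, as were 6 of 15 HSP90 co-chaperones. Cct3, a TRiC subunit, was measured at 238, 174 and 169 FPKM in preeclampsia libraries and at 220, 218 and 194 FPKM in control libraries. All 20 G2 and M phase genes were highest in preeclampsia library 1 too, and their part in these levels was not tested. Preeclampsia library 3 was the lowest of all for 5 of the 9 rows, and for 2449 of all 15776 tested genes.

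**Figure D3:**
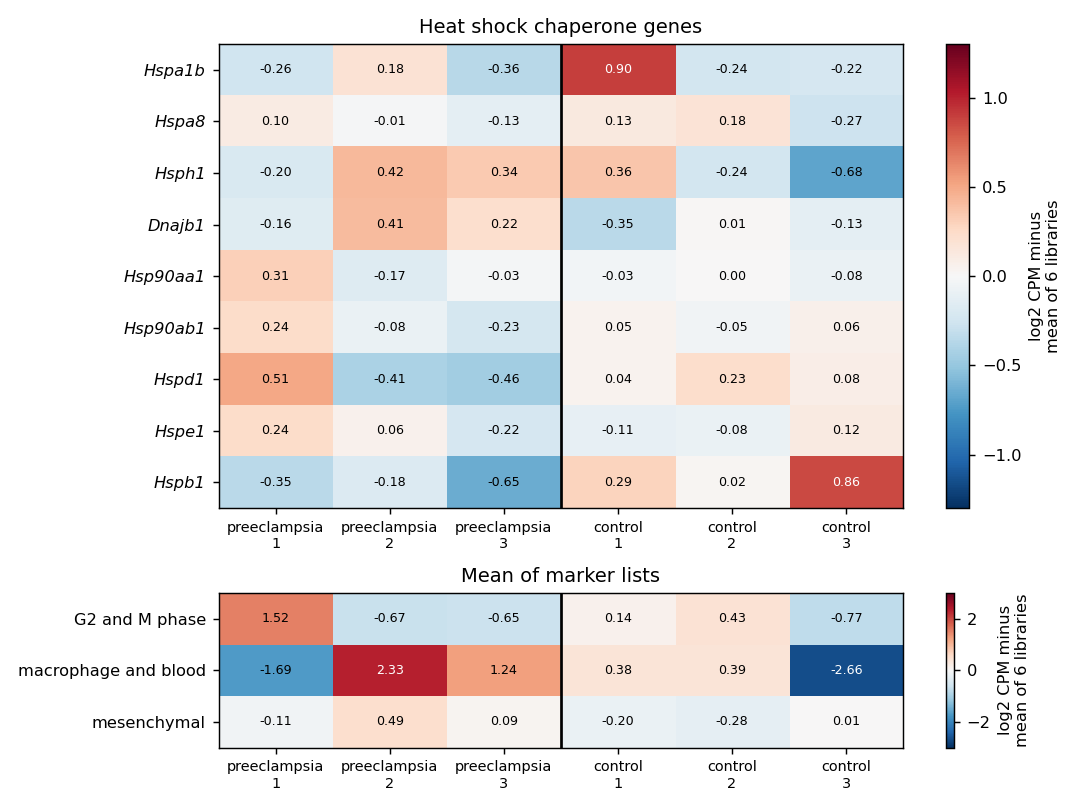
Log2 CPM of each heat shock row (top) and mean log2 CPM of 3 marker lists (bottom) minus the mean over the 6 libraries, preeclampsia libraries left of the line and control libraries right of it, with a separate colour scale for each panel. Hspa1b stands out in control library 1 (0.90), Hspb1 in control library 3 (0.86) and Hspd1 in preeclampsia library 1 (0.51), where the G2 and M phase list is also highest (1.52).

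The spread between libraries was set against that of other genes. The highest library exceeded the lowest by 1.36 fold in Hspa8 and by 2.84 fold in Hspb1, with a median of 1.69 fold over the 9 rows. That median was 1.51 fold over the 5725 tested genes whose mean was 10 FPKM or more and 1.86 fold over all tested genes. The median absolute log2 fold change was 0.17 for the 9 rows, 0.17 for those 5725 genes and 0.24 for all tested genes.

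Of the 5 genes for heat shock factors and their binding protein, 4 were tested, 2 being higher and 2 lower, and edgeR and DESeq2 called 0. Hsf1, which encodes its main activator and acts chiefly through the state of the protein, was measured at 8.68, 8.32 and 7.53 FPKM in preeclampsia libraries and at 8.06, 8.16 and 8.27 FPKM in control libraries. The log2 fold change of Hsf1 was 0.02 (SE 0.12, adjusted p = 0.971 in edgeR). Hsf2, a related factor, averaged 2.99 ± 0.880 FPKM in preeclampsia cells and 3.53 ± 0.0862 FPKM in control cells (SD, n = 3 each). Hsbp1, which binds HSF1 and is known to restrain it, averaged 36.5 ± 2.99 FPKM in preeclampsia cells and 40.7 ± 3.98 FPKM in control cells. Hsf4 stayed under 1 FPKM in every library, and Hsf5 had a value above 0 in 1 library only and was not tested.

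J-domain co-chaperones other than Dnajb1 deliver clients to HSP70s. Of 16 tested, 1 was higher and 4 were lower in preeclampsia cells at that level, against backgrounds of 4.13% and 5.06% of all tested genes, and edgeR called 0 of them after adjustment. The groups did not overlap in 7, with 2 higher and 5 lower, against backgrounds of 7.25% and 8.3%. Dnajb4, a heat-inducible relative of Dnajb1, was measured at 24.2, 20.7 and 23.7 FPKM in preeclampsia libraries and at 43.3, 37.2 and 34.4 FPKM in control libraries. The groups were well apart, and the log2 fold change was -0.73 (SE 0.14, unadjusted p = 0.00186, adjusted p = 0.374 in edgeR). DESeq2 called Dnajb4, at an adjusted p of 0.00483, the only call it made among the chaperone lists, against 2.36% of all genes with an adjusted p. Dnaja1, the main J-domain partner of Hspa8 and a carrier of the 3-unit repeat, averaged 113 ± 3.23 FPKM in preeclampsia cells and 95.8 ± 8.49 FPKM in control cells (SD, n = 3 each; log2 fold change 0.26, SE 0.10, adjusted p = 0.533 in edgeR). Dnajc3, which works in the endoplasmic reticulum, averaged 47.7 ± 0.849 FPKM in preeclampsia cells and 59.2 ± 6.72 FPKM in control cells (-0.29, SE 0.10, adjusted p = 0.478 in edgeR).

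Among the other HSP70 relatives, 4 of 8 were higher and 4 lower, with 1, Hspa4l, past an unadjusted p of 0.05 in edgeR, against 9.19% of all tested genes. The groups did not overlap in 2 of the 8, Hspa4l and Hspa13. Both were lower, against 8.3% of all tested genes, and 0 were higher, against 7.25%. Hspa4l, an HSP110 relative, was measured at 1.86, 0.93 and 0.63 FPKM in preeclampsia libraries and at 2.44, 2.70 and 2.55 FPKM in control libraries, with no overlap and a log2 fold change of -1.16 (SE 0.40, adjusted p = 0.478 in edgeR). Hspa4, the abundant member of that branch, averaged 97.0 ± 10.7 FPKM in preeclampsia cells and 93.4 ± 5.72 FPKM in control cells. Hspa13, a microsomal HSP70 relative, averaged 23.1 ± 3.66 FPKM in preeclampsia cells and 28.8 ± 2.07 FPKM in control cells. Of the 9 exchange and BAG genes, 1 passed the unadjusted level, against 9.19% of all tested genes. It was Bag3, which links HSP70 to autophagy and is itself a heat shock gene. Bag3 was measured at 31.0, 36.7 and 37.7 FPKM in preeclampsia libraries and at 53.1, 58.0 and 39.3 FPKM in control libraries (log2 fold change -0.49, SE 0.19, adjusted p = 0.521 in edgeR). Bag2, which binds HSP70 and inhibits the ubiquitin ligase CHIP, averaged 51.9 ± 7.98 FPKM in preeclampsia cells and 62.3 ± 11.9 FPKM in control cells.

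HSP90 co-chaperones load clients onto HSP90 or time its cycle. Of 15 tested, 9 were higher and 6 lower, the median log2 fold change being 0.01, and 1 passed the unadjusted level, against 9.19% of all tested genes. That gene, the cyclophilin Ppid, averaged 12.2 ± 1.22 FPKM in preeclampsia cells and 15.8 ± 2.18 FPKM in control cells (-0.35, SE 0.13, adjusted p = 0.483 in edgeR). Ptges3, the p23 co-chaperone that binds the closed form of HSP90, averaged 150 ± 33.6 FPKM in preeclampsia cells and 151 ± 11.0 FPKM in control cells. Cdc37, which brings kinases to HSP90, averaged 89.3 ± 7.27 FPKM in preeclampsia cells and 80.0 ± 4.97 FPKM in control cells. Of 13 TRiC and prefoldin subunits 8 were higher and 5 lower, with a median of 0.01 and 0 past the unadjusted level. Cct7, a TRiC subunit, averaged 120 ± 26.1 FPKM in preeclampsia cells and 120 ± 8.49 FPKM in control cells. Pfdn6, a subunit of the prefoldin that feeds TRiC, had the smallest p of these and averaged 3.54 ± 0.108 FPKM in preeclampsia cells and 3.14 ± 0.163 FPKM in control cells.

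Organelles have chaperones of their own. Of 14 mitochondrial chaperones and proteases 5 were higher and 9 lower, the median log2 fold change being -0.09 and 0 past the unadjusted level. On TMM-scaled CPM the groups did not overlap in 3 of the 14, Hspa9, Clpx and Spg7. All were lower, against 8.3% of all tested genes, and 0 were higher, against 7.25%. Hspa9, the matrix HSP70 that draws in and folds imported proteins, averaged 349 ± 24.4 FPKM in preeclampsia cells and 376 ± 5.66 FPKM in control cells (-0.09, SE 0.10, adjusted p = 0.861 in edgeR). Trap1, the mitochondrial HSP90, averaged 51.6 ± 10.3 FPKM in preeclampsia cells and 46.8 ± 3.19 FPKM in control cells. The matrix protease Lonp1 averaged 43.5 ± 11.8 FPKM in preeclampsia cells and 34.3 ± 2.11 FPKM in control cells. Of 13 endoplasmic reticulum chaperones 7 were higher and 6 lower, with a median of 0.07. Dnajb9, a J-domain gene of the unfolded protein response, was the 1 past the unadjusted level, against 9.19% of all tested genes, with 10.7 ± 1.93 FPKM in preeclampsia cells and 15.2 ± 1.75 FPKM in control cells (-0.48, SE 0.16, adjusted p = 0.473 in edgeR). Serpinh1, the collagen chaperone HSP47, averaged 530 ± 116 FPKM in preeclampsia cells and 439 ± 60.7 FPKM in control cells (0.30, SE 0.22, adjusted p = 0.764 in edgeR). Calr, the calcium-binding lectin calreticulin, averaged 1291 ± 129 FPKM in preeclampsia cells and 1134 ± 290 FPKM in control cells.

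In a further list of 10 stress-responsive genes, 5 were higher and 5 lower, and 3 passed the unadjusted level, against 9.19% of all tested genes. In the same 3 the groups did not overlap, against 15.6%. Rsrp1 averaged 50.3 ± 4.55 FPKM in preeclampsia cells and 34.1 ± 6.08 FPKM in control cells (log2 fold change 0.58, SE 0.15, unadjusted p = 0.00733, adjusted p = 0.441 in edgeR). Ubb, a polyubiquitin gene, averaged 180 ± 27.8 FPKM in preeclampsia cells and 162 ± 27.7 FPKM in control cells. The other 2 past the unadjusted level, Zfand2a and Chac1, had adjusted p-values of 0.526 and 0.470 in edgeR and were low in every library, at no more than 3.71 FPKM.

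**Figure D4:**
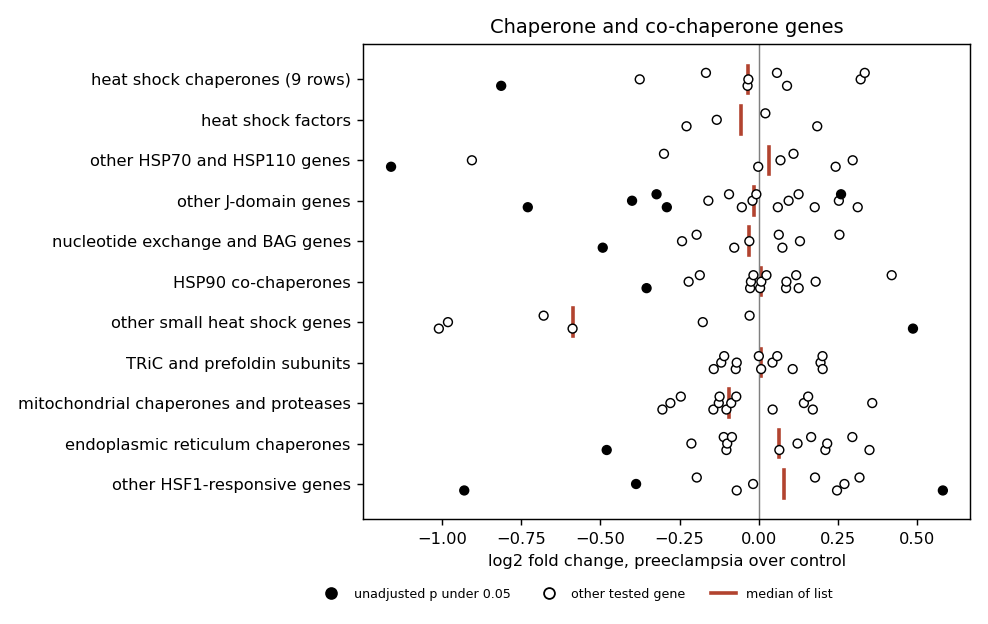
Log2 fold change of each tested gene, preeclampsia over control in edgeR (horizontal axis), by chaperone list, with filled points for an unadjusted p under 0.05 and a red line at the median of the list. The medians lie between -0.09 and 0.08 except for the other small heat shock genes at -0.59, a list of 7 genes none of which was called. On TMM-scaled CPM the groups overlap in all 7 of them.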

How the data were processed

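RNA was measured in 3 preeclampsia and 3 control libraries. Per the labels' protocols, poly(A) RNA was captured and fragmented, cDNA was primed at random, and the adapters carried unique molecular identifiers. No source used here states whether reads were collapsed by identifier. Per the submitters' processing notes, cutadapt 1.9, FastQC, HISAT2 2.2.1 and StringTie 2.1.6 were used, without roles. The authors deposited a single table that gives, per the file headers, the count and the FPKM of every gene in each library. Over the 15 pairs of libraries, chi-square divided by its degrees of freedom was at least 114.2, so none was a duplicate.

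Low counts were removed by filterByExpr and TMM factors computed. The test was edgeR's quasi-likelihood test (version 4.0.16, R 4.3.3) on a model of group alone, adjusted by Benjamini-Hochberg over 15776 genes. Fold changes are preeclampsia over control. The biological coefficient of variation was 0.418, a spread far above counting error at these depths. Within-library ratios were compared by exact permutation over every split of the libraries, computed with numpy 2.4.6. The design asked for Hspa1a plus Hspa1b over Hspa8; only the row named Hspa1b was used, and the ratio with LOC108348108 added was chosen after seeing the data. The settings tried beside it were the replicate number as a block, total counts without TMM, every gene unfiltered, DESeq2 1.42.0, limma 3.58.1 on log2(FPKM + 1) and log2(FPKM + 0.1) for genes whose mean was 1 FPKM or more, and each library left out. Scripts were tested on simulated data. Overlap between groups was judged on TMM-scaled CPM.

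The members and lists were chosen with earlier results of these data known. Named genes were all members, the heat shock factors, in each chaperone list the 2 tested genes of highest mean FPKM, that of smallest edgeR p and any called, and up to 3 abundant genes of a marker list that moved with a member. Of the genes this rule names, 1 is not reported here. Krt18, Pdgfra, Zfand2a and Chac1 were added after their values were seen. Promoter sequences are those of RefSeq on GRCr8.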

Additional observations from a re-analysis of the deposited data

How the results depend on the processing

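In edgeR 0 genes were called over the whole table. DESeq2 called 350, and leaving out 1 library gave between 0 and 2 calls, with 1 without control replicate 3 and 2 without preeclampsia replicate 1. No member was called under any of the 12 alternatives run. Hspb1, Dnajb1 and Hsph1 kept their sign under all 12, Hspb1 between -0.98 and -0.54 with an adjusted p of 0.105 to 0.783, and without preeclampsia replicate 3 no member had an unadjusted p under 0.05. Signs turned only with a library left out. Hspa1b ranged from -0.56 to 0.10 and its ratio to Hspa8 from -0.54 to 0.05, both positive without control replicate 1. Hspa8 ranged from -0.15 to 0.052, with 0.02 without control replicate 1, 0.052 without control replicate 2 and 0.02 without preeclampsia replicate 3. Hsp90ab1 ranged from -0.18 to 0.069, with 0.0051 and 0.069 without preeclampsia replicates 2 and 3. Hsp90aa1 and Hspe1 ranged from -0.063 to 0.19 and from -0.057 to 0.17, negative without preeclampsia replicate 1. Hspd1 ranged from -0.55 to 0.0042, the only positive value being that without preeclampsia replicate 3. Dnajb1 ranged from 0.19 to 0.46, the log2 difference in the ratio of Hsp90aa1 to Hsp90ab1 from 0.05 to 0.19 and that in the ratio of Hspd1 to Hspe1 from -0.49 to -0.12. With the FPKM of the second inducible HSP70 copy added, a level that is uncertain, the log2 difference in the ratio to Hspa8 was -0.30.

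No pairing of the samples by replicate number was evident, the deviations of same-numbered libraries correlating at 0.048, 0.041 and 0.010. Such correlations cannot show that same-numbered libraries shared no batch, since the libraries also differed in their marker levels. With the replicate block edgeR called 0 genes and 0 members, and Hspb1 was at -0.78 (adjusted p = 0.651). For the ratios between members, an exact sign-flip test on the pairs cannot give a p under 0.25.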
